A study of Mus musculus with 2 samples.

Results

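The 8 genes described here, of 55357 in the deposited tables, encode dopamine receptors and the signalling proteins that act with them in the striatum: Drd1, Drd2, Drd3, Adora2a, Pde10a, Ppp1r1b, Rgs9 and Gnal. They were chosen by name with their levels per class of nuclei in these libraries already known, including the difference of Pde10a between the libraries in astrocytes, so those levels are a description and carry no test. The study profiled single nuclei of mouse hippocampus in 2 libraries. For the knockdown-labelled library, mice with a Bcas2 gene flanked by loxP sites (Bcas2F/F) had received AAV2/9-Syn-cre, an adeno-associated virus that carries Cre recombinase behind a synapsin promoter, used to target neurons. For the control library, Bcas2F/F mice had received AAV-vehicle, although its genotype label reads WT and the labels do not settle this. Bcas2 encodes a protein of the Prp19 complex, which takes part in splicing. Its floxed part, the age of the mice and the number pooled are not stated in the labels.

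Dopamine acts in the striatum on medium spiny neurons, which fall into a direct-pathway type with the D1 receptor and an indirect-pathway type with the D2 receptor. The D1 receptor couples through the stimulatory G protein subunit encoded by Gnal to adenylyl cyclase and cAMP, and the adenosine A2a receptor (Adora2a) does the same in D2 neurons, whereas D2 and D3 receptors lower cAMP. Pde10a encodes a phosphodiesterase that breaks down cAMP and cGMP, Ppp1r1b encodes DARPP-32, an inhibitor of protein phosphatase 1 that cAMP signalling switches on, and Rgs9 encodes a protein that ends G protein signals. The hippocampus holds few or no medium spiny neurons.

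The promoters of 5 of the 8 genes, 7 start sites in all, were found by symbol in the RefSeq table of build GRCm38.p6, which is not the build of the deposited counts. Those of Drd1 and Drd2 are printed because these receptors marked separate nuclei in the striatal cluster described below, and those of Pde10a because its ratio between the libraries in astrocyte-like nuclei was among the values that chose the genes. Each runs 5′ to 3′ from 250 bases before the start to 50 bases after it, and capitals mark the GC box, GGGCGG on either strand.
Drd1 start 1, chr13:54055609-54055908, minus strand: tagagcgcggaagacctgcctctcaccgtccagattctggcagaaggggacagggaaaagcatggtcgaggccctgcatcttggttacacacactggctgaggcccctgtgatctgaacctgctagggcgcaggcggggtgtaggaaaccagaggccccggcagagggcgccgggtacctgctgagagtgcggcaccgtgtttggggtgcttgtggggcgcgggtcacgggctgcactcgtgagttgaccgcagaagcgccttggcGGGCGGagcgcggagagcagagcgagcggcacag
Drd1 start 2, chr13:54054731-54055030, minus strand: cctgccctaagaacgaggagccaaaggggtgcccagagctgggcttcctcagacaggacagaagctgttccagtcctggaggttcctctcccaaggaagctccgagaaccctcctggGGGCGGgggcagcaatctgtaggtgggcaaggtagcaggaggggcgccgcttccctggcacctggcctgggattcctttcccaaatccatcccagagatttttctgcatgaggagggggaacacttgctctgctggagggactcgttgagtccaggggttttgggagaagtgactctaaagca
Drd2, chr9:49340153-49340452, plus strand: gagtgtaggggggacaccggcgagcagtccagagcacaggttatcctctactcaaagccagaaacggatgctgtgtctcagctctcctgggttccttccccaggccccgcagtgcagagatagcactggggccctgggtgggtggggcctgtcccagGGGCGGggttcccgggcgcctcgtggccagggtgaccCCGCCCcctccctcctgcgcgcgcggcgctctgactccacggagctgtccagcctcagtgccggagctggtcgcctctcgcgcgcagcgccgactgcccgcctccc
Pde10a start 1, chr17:8801495-8801794, plus strand: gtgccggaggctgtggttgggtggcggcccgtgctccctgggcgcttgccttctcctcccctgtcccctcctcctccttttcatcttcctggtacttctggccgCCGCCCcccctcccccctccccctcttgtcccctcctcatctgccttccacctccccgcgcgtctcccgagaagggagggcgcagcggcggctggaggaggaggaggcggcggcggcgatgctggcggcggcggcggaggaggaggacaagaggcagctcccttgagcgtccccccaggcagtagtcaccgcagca
Pde10a start 2, chr17:8849735-8850034, plus strand: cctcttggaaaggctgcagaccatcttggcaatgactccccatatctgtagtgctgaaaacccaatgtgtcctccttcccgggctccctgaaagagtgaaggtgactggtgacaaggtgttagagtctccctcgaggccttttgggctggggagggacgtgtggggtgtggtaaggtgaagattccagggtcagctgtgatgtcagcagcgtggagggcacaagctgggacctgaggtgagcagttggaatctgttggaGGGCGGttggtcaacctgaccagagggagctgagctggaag
Drd1 and Pde10a have 2 annotated starts each, and counts from a 3′ kit do not tell which was used. Of the 7 promoters, 6 hold at least 1 GC box, the 5 printed ones among them, and that of Drd3 holds 0. The GC box is in 35.7% of all 32851 promoters of the same length. Neither the cAMP response element TGACGTCA, present in 1.79% of all promoters, nor its half-site TGACG, present in 20.8%, was found on either strand in the 7 promoters of these genes. These are matches of letters in a window and say nothing of binding.

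Depth and makeup differed between the libraries. In the knockdown-labelled library there were 90594923 UMIs (unique molecular identifiers) over 16693 barcodes, and 11986 nuclei with a median of 5764 UMIs were kept. The control held 12621 barcodes and 41781481 UMIs, of which 11272 nuclei with a median of 2488.5 UMIs were kept. Nuclei fell into 38 clusters and 20 named classes. Oligodendrocyte-like nuclei were 65.9% of the control and 17.2% of the other library, and 19.8% of the knockdown-labelled nuclei stayed unnamed against 0.940% of the control. Both libraries held male and female nuclei, and 56 barcode sequences occurred in both. Bcas2 itself was at 33.9 CPM (UMIs of the gene scaled to 1e+06 UMIs of the class; 95% interval 30.9 to 37.3) in knockdown-labelled dentate gyrus (DG) granule-like nuclei and 32.9 (27.5 to 39.1) in control ones, and the labels do not say which part of the transcript Cre removes. Each group is 1 library, so the spread between animals is unknown and every interval covers counting error only.

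Across the named classes with at least 20 nuclei, 7 of the 8 genes had their highest level in the striatal medium spiny neuron-like class of the knockdown-labelled library. The exception was Ppp1r1b, which was higher in choroid plexus-like nuclei. It comprised 279 knockdown-labelled nuclei (2.33%) and 65 control nuclei (0.577%). All 22 of its markers, none of them among the 8 genes, were detected in at least 5% of its nuclei in the first library and 18 of 22 in the control.

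**Figure D1:**
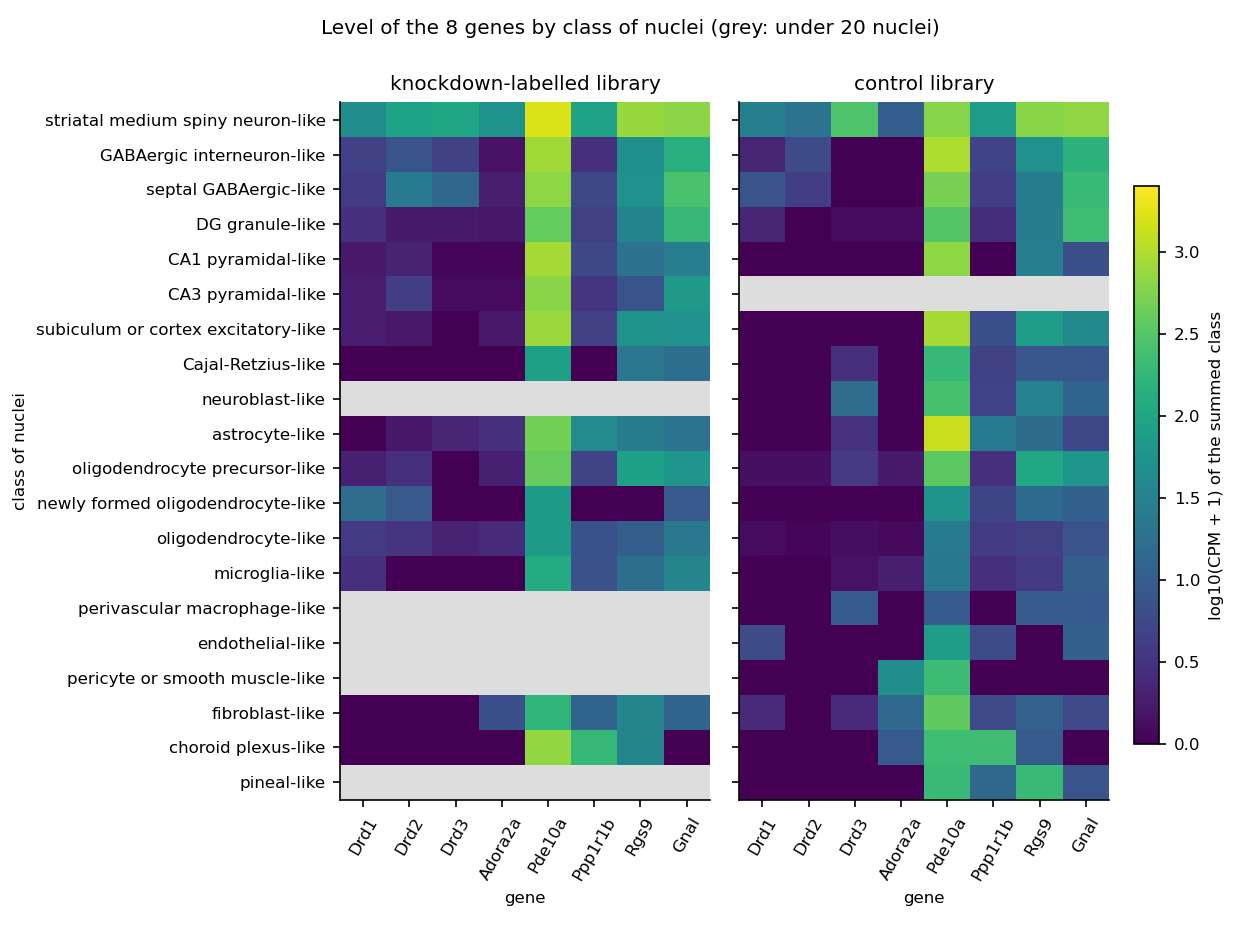
Level of the 8 genes (columns) in each class of nuclei (rows) of the knockdown-labelled and the control library, as log10(CPM + 1) of the summed UMIs of the class, with classes under 20 nuclei in grey. Receptor genes are low in most classes outside the top row, with Drd2 at 24.0 CPM in knockdown-labelled septal GABAergic-like nuclei and Adora2a at 46.8 CPM in control pericyte or smooth muscle-like nuclei. Pde10a is bright in most neurons and, of the classes drawn for the control library, brightest in astrocyte-like nuclei (1358 CPM).

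The class consisted of 2 clusters that differed in receptors and are therefore described apart, a choice made after their values were seen. Cluster 19 (213 knockdown-labelled and 13 control nuclei) was led by Rarb, Foxp2 and Meis2, transcription factors of the striatum. Cluster 27 (66 and 52 nuclei) was led by Syt6, Gpr149, Drd3 and Isl1, and 15 of the 22 class markers were detected in it. The class name describes cluster 27 less well. Its leading 100 genes held 4 class markers, against 9 in cluster 19. Tac1 was in 57.6% and 65.4% of its nuclei and Rarb in 72.7% and 53.8%, but Gpr6 and Pdyn had no UMI and Penk 3 and 1. It made up 52 of the 65 control nuclei of the class, and its identity was not tested. In the hippocampal dissection these nuclei were a small group, and whether they came from neighbouring tissue was not tested.

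Drd1, the receptor of the direct pathway, was at 49.5 CPM (81 UMIs) in cluster 19 of the knockdown-labelled library and 18.2 CPM (2 UMIs) in that of the control. In cluster 27 it was at 9.10 CPM (2 UMIs) and 33.2 CPM (7 UMIs). These control values rest on so few UMIs that their intervals, 2.20 to 65.6 and 13.4 to 68.4 CPM, overlap. Elsewhere Drd1 was low or rested on few UMIs, as in knockdown-labelled newly formed oligodendrocyte-like nuclei (15.6 CPM, 1.89 to 56.3, 2 UMIs in 24 nuclei). GABAergic interneuron-like nuclei of the knockdown-labelled library held 3.61 CPM (2.57 to 4.94) and septal GABAergic-like nuclei 3.01 CPM (1.72 to 4.88), with a log2 ratio whose interval spans 0 (0.26, −0.61 to 1.20). Oligodendrocyte-like nuclei, which should lack the gene, held 2.80 CPM (1.45 to 4.89) in that library and 0.264 CPM (0.0858 to 0.617) in the control. The septal level could not be told from that of the knockdown-labelled oligodendrocytes (log2 ratio 0.10, −1.07 to 1.32). Among astrocyte-like nuclei no Drd1 UMI was found in either library, 0 of 533 and 0 of 626 nuclei.

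Drd2, the receptor of the indirect pathway, was at 105 CPM (171 UMIs) in cluster 19 of the knockdown-labelled library and 54.5 CPM (6 UMIs) in that of the control. It had no UMI in cluster 27 of either library, where the upper limits were 16.8 and 17.5 CPM. The next level was that of septal GABAergic-like nuclei of the knockdown-labelled library, 24.0 CPM (20.1 to 28.6, 128 UMIs), all of it from cluster 11, which was led by Prdm16 and Zic1 among others. Cluster 13, GABAergic nuclei led by Chrm2 and Zfhx3 among others, held 12.7 CPM (51 UMIs) in that library and 8.71 CPM (4 UMIs) in the control. Both clusters stood above the 2.33 CPM (1.12 to 4.29) of knockdown-labelled oligodendrocyte-like nuclei. The unnamed clusters 10 and 18 of that library held 34 and 19 UMIs, with CPM intervals of 3.74 to 7.54 and 3.97 to 10.3. DG granule-like nuclei held 10 UMIs among 1992 nuclei in the knockdown-labelled library and 0 among 482 in the control.

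Drd3, a receptor of the D2 family, had its highest level of all clusters in cluster 27. Its level there was 487 CPM (399 to 589) in knockdown-labelled nuclei and 432 CPM (348 to 530) in control nuclei, with a UMI in 77.3% and 80.8% of nuclei. The log2 ratio of the libraries has an interval that spans 0 (0.17, −0.24 to 0.59). Drd3 was among the leading genes of the cluster but was kept out of the clustering itself. In cluster 19 it was at 49.5 CPM in the knockdown-labelled library, a log2 difference of −3.30 (−3.73 to −2.87) from cluster 27. In the same library Drd3 also reached 12.3 CPM in cluster 11, in 3.49% of its nuclei, with 18 of the 65 UMIs in a single nucleus. GABAergic cluster 13 held 9.23 CPM (37 UMIs) in 4.23% of its nuclei.

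Adora2a, the adenosine A2a receptor, was at 60.5 CPM (99 UMIs) in cluster 19 of the knockdown-labelled library and 27.2 CPM (3 UMIs) in that of the control, and like Drd2 it had no UMI in cluster 27. Of all its UMIs in the knockdown-labelled library, 69.2% lay in the medium spiny class. In the control its highest level was outside neurons. Pericyte or smooth muscle-like nuclei held 46.8 CPM (12.8 to 119.8, 4 UMIs in 40 nuclei) and fibroblast-like nuclei 13.7 CPM (6.27 to 26.0, 9 UMIs in 179 nuclei). The control medium spiny class held 9.35 CPM (1.93 to 27.3), and the log2 ratios of neighbours in this order have intervals that span 0 (1.77, −0.38 to 3.61, and 0.55, −1.45 to 3.07).

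Within cluster 19 of the knockdown-labelled library, Drd1 and Drd2 marked different nuclei. Of 213 nuclei, 56 held a Drd1 UMI, 49 held a Drd2 UMI and none held both, which among the 105 nuclei with either allows a share of up to 3.45% (exact Clopper-Pearson). Adora2a UMIs were in 69.4% (54.6 to 81.7) of the Drd2 nuclei and in 1.79% (0.0452 to 9.55) of the Drd1 nuclei. The control held 1 Drd1 nucleus and 3 Drd2 nuclei among 13, also with no overlap. At a median of 7230 UMIs a nucleus can express a receptor without showing it, and 108 nuclei showed neither.

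Genes known for the types separated along the same line. Penk, the enkephalin precursor of indirect-pathway neurons, was at 574 CPM (504 to 651) in Drd2 nuclei and 92.4 CPM (66.6 to 124.9) in Drd1 nuclei. Gpr6, a receptor of indirect-pathway neurons, was at 59.5 CPM (38.5 to 87.9) and 6.60 CPM (1.36 to 19.3). Both were thus higher in the Drd2 nuclei by more than counting error. Tac1, the substance P precursor of direct-pathway neurons, was at 14.3 CPM (5.24 to 31.1) in Drd2 nuclei and 246 CPM (203 to 297) in Drd1 nuclei. Isl1, a transcription factor of the direct pathway, was at 7.14 CPM (1.47 to 20.9) and 94.6 CPM (68.5 to 127.4), and Pdyn, the dynorphin precursor, had no UMI in Drd2 nuclei against 44.0 CPM (26.9 to 68.0) in Drd1 nuclei. Sp9, a transcription factor of indirect-pathway neurons, was found in 12.2% (4.63 to 24.8) and 5.36% (1.12 to 14.9) of these nuclei, intervals that overlap. The genes downstream of the receptors did not separate this way. Pde10a was at 2190 CPM in Drd2 nuclei and 1974 CPM in Drd1 nuclei, and Ppp1r1b, Rgs9 and Gnal were each found in more than 50% of the nuclei of both kinds, as the plot of shares by receptor shows.

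**Figure D2:**
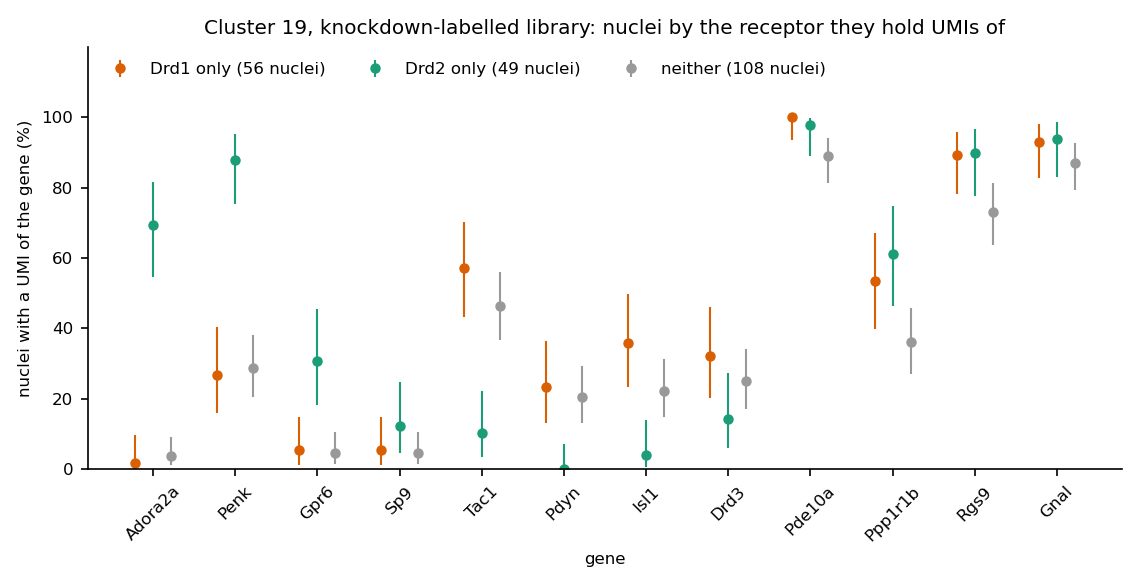
Share of nuclei with at least 1 UMI of a gene among nuclei of cluster 19 in the knockdown-labelled library that held UMIs of Drd1 only (56), Drd2 only (49) or neither (108), with 95% Clopper-Pearson intervals. Adora2a (69.4%) and Penk (87.8%) are high in Drd2 nuclei and Tac1 (57.1%) in Drd1 nuclei, while Pde10a, Rgs9 and Gnal are high in both.

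Cluster 27 carried part of the same signalling genes. Rgs9 was at 833 CPM (717 to 963) there and at 730 CPM in cluster 19 of the knockdown-labelled library, a log2 difference of −0.19 (−0.42 to 0.042) that lies within counting error. Gnal was at 537 and 654 CPM (log2 difference 0.28, 0.0078 to 0.57). Both genes were high in both clusters. Pde10a was at 214 CPM (157 to 285) in cluster 27 and 1868 CPM in cluster 19, a log2 difference of 3.13 (2.71 to 3.57), and the control gave 2.91 (2.39 to 3.45). Ppp1r1b had 1 UMI in cluster 27 of the knockdown-labelled library and 2 in that of the control, against 164 and 22 UMIs in cluster 19. Cluster 27 was thus low in Pde10a and Ppp1r1b but not in Rgs9 and Gnal, in both libraries. The mix of clusters set the level of the whole class: Pde10a was at 1672 CPM in the medium spiny class of the knockdown-labelled library and 598 CPM in that of the control, where most of the class was cluster 27. Within cluster 19 the log2 ratio of the libraries was 0.43 (0.19 to 0.67) for Pde10a, 0.50 (0.11 to 0.91) for Rgs9, −0.12 (−0.45 to 0.23) for Gnal and −0.99 (−1.64 to −0.28) for Ppp1r1b, each resting on 13 control nuclei.

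Gnal, the G protein subunit, was highest, after the medium spiny class, in septal GABAergic-like and DG granule-like nuclei. It was at 268 CPM (254 to 282) in knockdown-labelled and 195 CPM (149 to 252) in control septal GABAergic-like nuclei. Within cluster 11 of that class Gnal was at 269 CPM (256 to 284) and 265 CPM (201 to 343, 20 control nuclei). The other 22 control nuclei of the class, in cluster 35, held 11.9 CPM (a single UMI). In DG granule-like nuclei it was at 183 CPM (176 to 191) and 223 CPM (208 to 238), and in GABAergic interneuron-like nuclei at 136 CPM (129 to 143) and 159 CPM (132 to 189). In the control the log2 ratio of DG over septal nuclei, both clusters of the septal class included, spans 0 (0.19, −0.19 to 0.60). DG granule-like nuclei held 51.9% of all Gnal UMIs of the control and 28.3% of those of the other library, so most Gnal RNA lay outside the striatal cluster. CA1 pyramidal-like nuclei of the knockdown-labelled library were lower, at 27.8 CPM (24.3 to 31.5).

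Among classes of at least 20 nuclei, the next Rgs9 level after the medium spiny class was that of knockdown-labelled oligodendrocyte precursor-like nuclei and, in the control, of pineal-like nuclei. Oligodendrocyte precursor-like nuclei held 86.2 CPM (69.2 to 106) when knockdown-labelled and 104 CPM (91.7 to 117) in the control, where they held 31.6% of all Rgs9 UMIs of the control. Oligodendrocyte-like nuclei held 9.55 and 3.43 CPM. The precursors were therefore above the mature class in each library. Some neuronal clusters were close to the precursors: cluster 13, of GABAergic nuclei, held 99.6 CPM (90.0 to 109.8) among knockdown-labelled nuclei, and cluster 15, of subiculum or cortex excitatory-like nuclei, held 87.8 CPM (77.9 to 98.7) there and 99.2 CPM (64.2 to 146) in the control. In the control, 21 pineal-like nuclei, led by the phototransduction genes Gnb3, Cngb3 and Sag among others, held 199 CPM (134 to 284) with a UMI in 76.2% of nuclei. Rgs9 is known for ending the light response in photoreceptors.

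Ppp1r1b was highest in choroid plexus-like nuclei, epithelium that makes cerebrospinal fluid, with 181 CPM (112 to 277) in 23 knockdown-labelled nuclei and 229.5 CPM (174 to 297) in 37 control nuclei. The levels of the 2 libraries overlap. The medium spiny class followed with 88.9 CPM (75.9 to 104) and 74.8 CPM (47.9 to 111). Astrocyte-like nuclei came next with 42.6 CPM (32.9 to 54.3) and 24.6 CPM (18.6 to 31.9), above the 6.29 CPM (4.15 to 9.15) and 2.91 CPM of oligodendrocyte-like nuclei. The order of these 3 classes was the same in both libraries. The medium spiny values include cluster 27, which held 1 and 2 UMIs. Cluster 19 alone held 100 CPM (85.5 to 117) and, in 13 control nuclei, 200 CPM (125 to 303). Both intervals overlap those of choroid plexus-like nuclei of the same library.

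Pde10a was found in nearly all neuronal classes. In the knockdown-labelled library the medium spiny class (1672 CPM) was followed by CA1 pyramidal-like (864 CPM, 844 to 884), GABAergic interneuron-like (814 CPM, 797 to 831) and subiculum or cortex excitatory-like nuclei (784 CPM, 763 to 805). Each of these exceeded the next, the last pair by a log2 ratio of only 0.055 (0.0059 to 0.10). In the control the order began with astrocyte-like (1358 CPM, 1311 to 1407), GABAergic interneuron-like (947 CPM, 881 to 1018) and subiculum or cortex excitatory-like nuclei (869 CPM, 773 to 974). The interval of the log2 ratio of the last pair spans 0 (0.12, −0.072 to 0.32). Among classes, astrocytes thus stood first in the control and at rank 8 of 15 in the other library. The control medium spiny class was mostly cluster 27. Cluster 19 alone held 1390 CPM (1178 to 1628, 13 nuclei) in the control, an interval that includes the astrocyte-like level. GABAergic cluster 24 held 1858 CPM (1613 to 2130, 11 nuclei) there. A small cluster of DG granule-like nuclei, singled out after its values were seen, had far more Pde10a than the rest: cluster 37, led by the activity-induced genes Nr4a2, Egr3, Fosb and Npas4 among others, held 1895 CPM (1695 to 2113) in 20 nuclei of the knockdown-labelled library, against 374 CPM (364 to 385) in the 1972 nuclei of cluster 2. Its single control nucleus held 14 UMIs. Pde10a was not among the genes used for clustering.

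**Figure D3:**
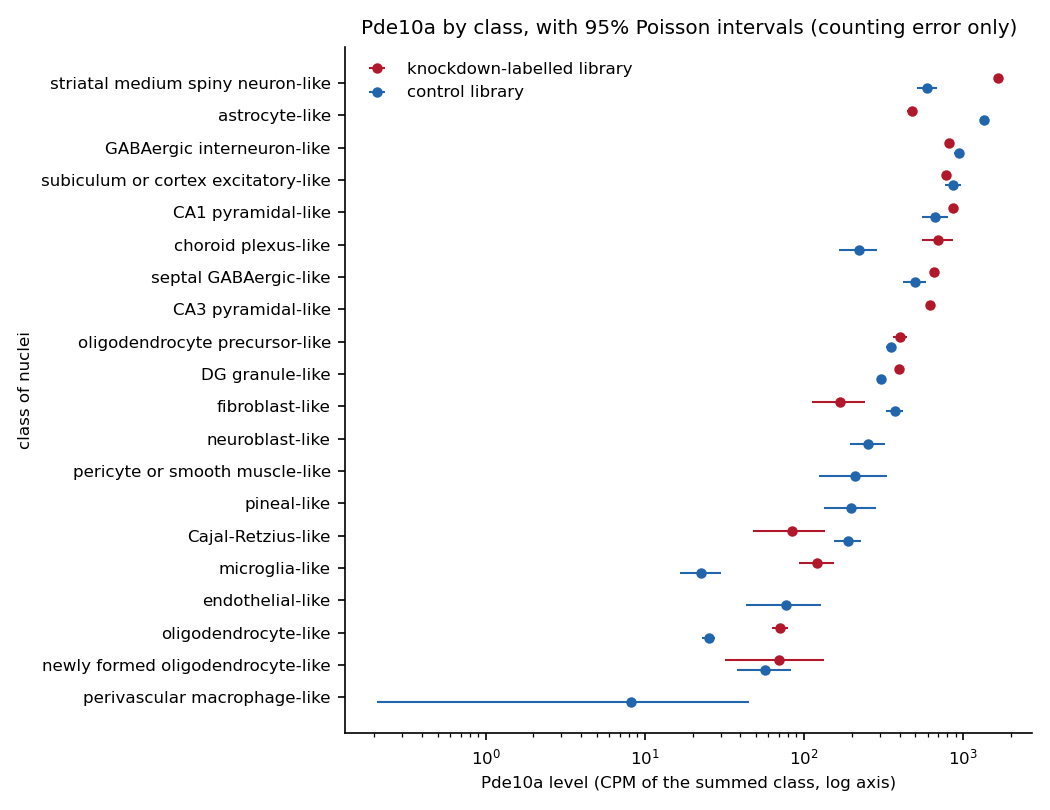
Pde10a level (CPM of the summed class, log axis) in each class with at least 20 nuclei, for the knockdown-labelled and the control library, with 95% Poisson intervals that cover counting error only. Astrocyte-like nuclei lie at 481 CPM in the knockdown-labelled library and 1358 CPM in the control, while microglia-like and oligodendrocyte-like nuclei lie higher in the knockdown-labelled library.

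Pde10a was lower in astrocyte-like nuclei of the knockdown-labelled library than in those of the control. The level was 481 CPM (447 to 517, 733 UMIs in 533 nuclei) against 1358 CPM (1311 to 1407, 3097 UMIs in 626 nuclei), a log2 ratio of −1.50 (−1.62 to −1.38). A Pde10a UMI was found in 46.0% (41.7 to 50.3) of knockdown-labelled and 66.9% (63.1 to 70.6) of control astrocyte-like nuclei, at median depths of 2786 and 3522.5 UMIs. After thinning to 1000 UMIs the shares were 27.4% (23.6 to 31.4) and 46.5% (42.5 to 50.5), and oligodendrocyte-like nuclei, as background, gave 6.69% and 2.40%. The control had a long upper tail. Nuclei with at least 10 UMIs of Pde10a were 115 of 626 in the control (18.4%, 15.4 to 21.6) and 11 of 533 in the other library (2.06%, 1.03 to 3.66), and the highest values were 61 and 15 UMIs. All 12 astrocyte markers were detected in at least 5% of the nuclei in both libraries, with a summed level of 19107 CPM in the knockdown-labelled library and 22626 CPM in the control.

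**Figure D4:**
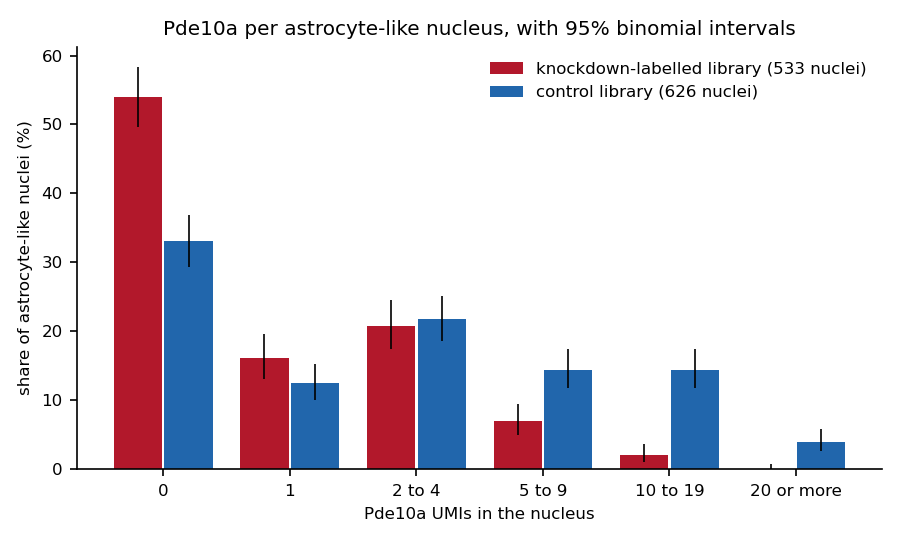
Share of astrocyte-like nuclei by the number of Pde10a UMIs they held, for the knockdown-labelled (533 nuclei) and the control library (626 nuclei), with 95% Clopper-Pearson intervals. Nuclei without a UMI are 54.0% and 33.1%, and nuclei with 20 or more UMIs are found in the control alone (3.99%).

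The difference was seen in male and in female nuclei. Male astrocyte-like nuclei, those with a Y-linked UMI and no Xist UMI, held 533 against 1297 CPM (log2 ratio −1.28, −1.47 to −1.10), and female nuclei, an alternative added after the data were seen, held 518 against 1441 CPM (−1.48, −1.67 to −1.29). It was also seen within a band of depth, chosen after its values were seen. Nuclei with at least 2000 and fewer than 5000 UMIs held 488 against 1371 CPM (−1.49, −1.61 to −1.37). That band held 491 of the 533 and 585 of the 626 nuclei, so it largely repeats the whole class. Below it the log2 ratio was −3.33 on 35 and 2 nuclei, and above it −1.29 on 7 and 39 nuclei. All these subsets come from the same libraries and are not separate evidence. At Leiden resolution 2 the astrocytes split into 2 clusters, and both were lower in the knockdown-labelled library. The larger held 518 against 1466 CPM and the smaller, led by Itih3 and Etnppl, held 218 against 400 CPM. The exception came with doublets kept. There 1 of 4 astrocyte-like clusters, of 96 knockdown-labelled and 19 control nuclei, held 644 against 464 CPM (0.47, 0.15 to 0.80), and the ratio over the class was −1.15.

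Of 9448 genes with at least 50 UMIs in astrocyte-like nuclei, 6.23% were at least 1.5-fold lower in the knockdown-labelled library and 14.2% at least 1.5-fold higher. Among 3721 genes with at least 200 UMIs, a limit chosen after the values were seen, Pde10a had the 17th lowest ratio, and it had the 71st lowest of the 9448. At the 200-UMI limit, all 16 genes with a lower ratio had a higher level in oligodendrocyte-like than in astrocyte-like nuclei of the control. The same was not counted for the genes ranked below Pde10a among the 9448. Markers of other cells moved too. The 13 oligodendrocyte markers summed to 589 CPM in knockdown-labelled and 2409 CPM in control astrocyte-like nuclei, with none at 0 in either. The 22 medium spiny neuron markers summed to 757 and 589 CPM, with 1 and 3 of them at 0. The neuronal vesicle gene Syt1 was at 460 CPM (427 to 496) and 67.1 CPM (56.9 to 78.6), opposite in direction to the oligodendrocyte markers. Other neuronal markers differed less. The DG granule sum was 1585 and 1624 CPM, the GABAergic interneuron sum 1091 and 1067 CPM and the CA1 sum 626 and 494 CPM. Pde10a was at 25.3 CPM in oligodendrocyte-like and 1358 CPM in astrocyte-like nuclei of the control. With the oligodendrocyte-like level taken off each library its log2 ratio in astrocyte-like nuclei was −1.70. Bcas2 in astrocyte-like nuclei was at 37.4 CPM (28.3 to 48.4) and 15.4 CPM (10.7 to 21.4). The part of these differences in the Pde10a ratio was not tested.

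Of the 40 pairs of the 8 genes with the 5 classes that held at least 100 nuclei in each library, 15 had at least 50 UMIs over both libraries. In the knockdown-labelled library 8 of the 15 were at least 1.5-fold higher, where 9.23% to 25.1% of all tested genes of a class were. Of the other pairs, 1 was at least 1.5-fold lower, where 5.76% to 12.2% of genes were, and 6 were within 1.5-fold. The count of higher pairs was 3 after thinning to 1000 UMIs and 1 after the oligodendrocyte-like level was taken off, which leaves no value for that class. No receptor gene reached 50 UMIs in any of the 5 classes, so the counts concern Pde10a, Ppp1r1b, Rgs9 and Gnal. The single lower pair was Pde10a in astrocyte-like nuclei.

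In oligodendrocyte-like nuclei, where 25.1% of all tested genes were at least 1.5-fold higher and 7.46% lower, all 4 of these genes were higher. Pde10a was at 71.1 against 25.3 CPM (log2 ratio 1.49, 1.28 to 1.70), Rgs9 at 9.55 against 3.43 CPM (1.48, 0.88 to 2.06), Gnal at 21.9 against 6.39 CPM (1.78, 1.37 to 2.18) and Ppp1r1b at 6.29 against 2.91 CPM (1.11, 0.39 to 1.80). In microglia-like nuclei, where 16.3% were higher and 12.2% lower, Pde10a was at 121 against 22.7 CPM (2.42, 1.85 to 2.99, 61 and 49 UMIs). Syt1 moved with them, at 597 against 53.9 CPM in oligodendrocyte-like and 709 against 79.2 CPM in microglia-like nuclei. Its part in these ratios was not tested. Syt1 is a single gene, and summed neuronal markers were mixed. In oligodendrocyte-like nuclei the DG granule sum was 2382 against 3219 CPM and the CA1 sum 1852 against 2429 CPM. The GABAergic interneuron sum was 1387 against 1643 CPM there, and the medium spiny sum 745 against 488 CPM. In microglia-like nuclei the DG granule sum was lower (2225 against 2467 CPM) and the GABAergic, CA1 and medium spiny sums were higher. Different clusters held most of each class in the libraries. Of knockdown-labelled oligodendrocyte-like nuclei 83.5% were in cluster 4, against 0.916% of control ones. Within cluster 4 Pde10a was at 77.6 CPM (68.5 to 87.5) against 104 CPM (55.6 to 179, 68 control nuclei). Gnal was at 24.0 against 24.1 CPM there (control 4.97 to 70.4, 3 UMIs). Ppp1r1b was at 7.03 against 8.03 CPM (control 0.203 to 44.8, 1 UMI) and Rgs9 at 10.8 CPM against no UMI (upper limit 29.6). For these 3 genes the control UMIs of cluster 4 are too few to compare the libraries. Pde10a was higher in knockdown-labelled nuclei of clusters 0 (46.0 against 19.2 CPM) and 3 (61.6 against 20.9 CPM). It was lower in cluster 1 (14.7 against 34.9 CPM, 3 knockdown-labelled UMIs). The Pde10a ratio of the class thus did not hold in every cluster, but the intervals of the libraries overlap in clusters 4 and 1. Of microglia-like nuclei 90.4% and 30.4% were in cluster 12. Pde10a was at 127 CPM (96.3 to 165) against 18.9 CPM (9.74 to 32.9) there. In cluster 9, the other microglia-like cluster, it was at 74.5 CPM (20.3 to 191, 4 UMIs) against 24.3 CPM (17.1 to 33.5).

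In astrocyte-like nuclei Ppp1r1b (log2 ratio 0.80, 0.26 to 1.34) and Rgs9 (26.2 against 14.9 CPM, 0.81, 0.12 to 1.52) were higher, opposite to Pde10a. Ppp1r1b fell short of 1.5-fold with doublets kept (0.43) and in male nuclei (0.41), and Rgs9 did with the oligodendrocyte-like level taken off (0.54). In DG granule-like nuclei, where 9.23% of genes were at least 1.5-fold higher and 5.76% lower, only Ppp1r1b passed that fold, at 3.38 against 1.79 CPM, and its interval spans 0 (0.92, −0.24 to 2.32, 44 and 7 UMIs). Pde10a was at 394 against 306 CPM there (0.37, 0.27 to 0.46) and Gnal at 183 against 223 CPM (−0.28, −0.39 to −0.17). Both ratios are under 1.5-fold, but that of Pde10a was 0.66 in female nuclei alone, past that fold. Rgs9 was at 32.9 against 26.3 CPM (0.32, 0.0093 to 0.65), and at 0.73 in male nuclei alone. Oligodendrocyte precursor-like nuclei, where 11.5% of genes were higher and 6.85% lower, had none of their 3 tested members past 1.5-fold. Pde10a was at 403 against 352 CPM (0.19, 0.023 to 0.36), Rgs9 had a ratio of −0.27 (−0.63 to 0.086), which was −0.68 in female nuclei alone, and Gnal one of −0.048 (−0.51 to 0.39).

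**Figure D5:**
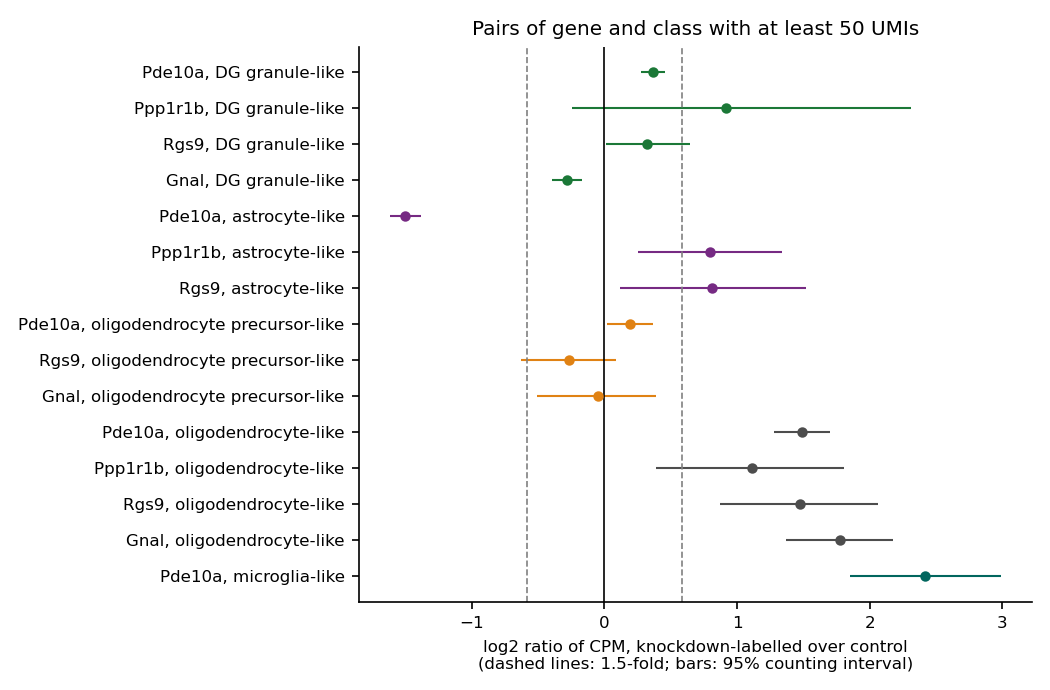
Log2 ratio of CPM, knockdown-labelled over control, for the 15 pairs of gene and class with at least 50 UMIs, with 95% conditional binomial intervals (counting error only) and dashed lines at 1.5-fold. Pde10a in astrocyte-like nuclei (−1.50) is the only pair left of the lower dashed line, and all pairs in oligodendrocyte-like and microglia-like nuclei lie to the right of the upper one.

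Other genes of dopamine and striatal signalling, 59 in 6 lists, were read beside the members. In astrocyte-like nuclei 34 had at least 50 UMIs. In the knockdown-labelled library 10 of these (29.4%) were at least 1.5-fold higher and 5 (14.7%) lower, where 14.2% and 6.23% of all tested genes were. Their median log2 ratio was 0.12 against 0.045 for all tested genes. The 5 with the largest ratios were higher: Camk2a, a neuronal protein kinase (2.42, 2.06 to 2.78), Bcl11b, a striatal transcription factor (2.32, 1.46 to 3.26), Ano3, a membrane protein of the anoctamin family (2.06, 1.35 to 2.81), Adcy1, an adenylyl cyclase (1.86, 1.18 to 2.58), and Prkar1b, a regulatory subunit of protein kinase A (1.62, 0.79 to 2.49). These moved in the direction of Syt1, whose part was not tested. The list of striatal G protein and cyclic nucleotide genes had 4 higher (26.7%) and 3 lower (20%) of 15 tested, beside the same 14.2% and 6.23%. The 5 lower genes over all lists are named after their values were seen. The phosphodiesterase Pde7b, specific for cAMP, was at 304 against 604 CPM (−0.99, −1.14 to −0.84), Pde4b at 378 against 605 CPM (−0.68, −0.82 to −0.54) and Pde1c at 15.1 against 37.3 CPM (−1.31, −2.04 to −0.63). Adenosine receptors Adora2b (−0.83, −1.63 to −0.088) and Adora1 (−0.66, −1.35 to 0.0014) were the other two. Pde4b was far higher in oligodendrocyte-like nuclei of the control (7087 CPM), while Pde7b there was at 9.46 CPM. A further phosphodiesterase, Pde4d, was at 570 against 661 CPM in astrocyte-like nuclei (−0.21, −0.34 to −0.093).

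In DG granule-like nuclei the lists gave 3 higher (6.98%) and 2 lower (4.65%) of 43 genes, where 9.23% and 5.76% of all tested genes were. Their median was 0.084 against 0.046 for all genes. Microglia-like nuclei had 11 higher (40.7%) and 2 lower (7.41%) of 27, beside 16.3% and 12.2% (median 0.39 against −0.011). Oligodendrocyte precursor-like nuclei had 6 higher (17.6%) and 1 lower (2.94%) of 34, beside 11.5% and 6.85% (0.16 against 0.019). Oligodendrocyte-like nuclei had 25 higher (58.1%) and 2 lower (4.65%) of 43, beside 25.1% and 7.46% (0.76 against 0.15). In DG granule-like nuclei Drd5, the other D1-family receptor, was at 4.53 against 2.04 CPM (1.15, 0.079 to 2.43, 59 and 8 UMIs). Drd4 had 3 and 0 UMIs there and was not tested. GABAergic interneuron-like nuclei (1295 knockdown-labelled, 72 control) were under the minimum for a comparison.

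The genes whose levels followed each member most closely were named by Pearson correlation of log2(CPM + 5) over 34 clusters of at least 50 nuclei, among 14287 genes, as a description without a test, since clusters share libraries and depth. For Drd1 they were Cartpt (r = 0.86), Mhrt (0.84) and Oprk1 (0.82), and for Drd2 Gpr6 (0.83), Rxrg (0.81) and Togaram2 (0.80). For Drd3 they were Gm10421 (0.90), Isl1 (0.86) and Slco5a1 (0.86), and for Adora2a Gm13974 (0.74), Pdyn (0.71) and Nexn (0.69). For Rgs9 they were Tac1 (0.81), Cartpt (0.80) and Oprk1 (0.80). Each of these 15 places went to a gene whose own highest cluster was 19 or 27. For Gnal they were Ptpn5 (0.88), Gm45159 (0.85) and Gm45178 (0.85), for Ppp1r1b 1700003D09Rik (0.92), Sh3rf2 (0.83) and G630093K05Rik (0.81), all highest in the choroid plexus-like cluster, and for Pde10a Ttc19 (0.91), Slc4a3 (0.89) and Dzip1l (0.89). Among the members themselves, Rgs9 and Gnal were closest (r = 0.74).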

How the data were processed

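Single-nucleus RNA was sequenced with a 10x 3′ kit, and the authors deposited counts, raw UMI counts per gene and barcode. Per the file headers they were made with Cell Ranger 9.0.1, and per the submitters' processing notes bcl2fastq 5.0.1, Seurat 4.1.0 and build GRCm39 were used. Here barcodes were kept from 500 genes and 800 UMIs upward, up to 5% mitochondrial UMIs. Doublets were scored against simulated ones and marked at the expected rate of 0.8% per 1000 nuclei (1443 and 1256 nuclei, 10.7% and 10.0%). Both libraries were clustered together without integration (2000 variable genes, 30 components, 15 neighbours, Leiden resolution 1), leaving out the 8 genes, Bcas2, sex-linked and mitochondrial genes. Clusters were named from marker lists. Class levels are summed UMIs as CPM with exact Poisson 95% intervals, shares have Clopper-Pearson intervals and ratios exact conditional binomial ones. Calls needed 50 UMIs over both libraries and a 1.5-fold ratio with 0.5 UMI added, in classes of at least 100 nuclei per library. A count of 0 allows up to 3 counts as a floor, and intervals printed for 0 counts are the exact bounds. No p-value is given, since each group is 1 library. The calling step, tested on simulated data with 200 changed genes per class, recovered 99.5% to 100% of them and called 3.13% to 8.22% of unchanged genes, most in microglia-like nuclei. Alternatives were filters, doublets, resolution, clustering genes, library centring, TMM scaling, means over nuclei, thinning, subtraction of the oligodendrocyte-like level, sex and UMI minimum. The members and lists were chosen with earlier results of these data known. Genes named were the 8 members, the 3 genes most like each, and at most 5 pathway genes per class by size of ratio. Others were named after their values were seen, as were the depth band, the 200-UMI limit, the split of clusters 19 and 27 and the choice of cluster 37. Software was Python 3.11.15, numpy 2.4.6, scipy 1.17.1, scikit-learn 1.9.0, leidenalg 0.10.2, R 4.3.3 and edgeR 4.0.16 (for TMM factors).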

Additional observations from a re-analysis of the deposited data

Results flagged for a closer look

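The ratio of Pde10a between the libraries went in opposite directions in different classes. Its log2 ratio, knockdown-labelled over control, was -1.50 in astrocyte-like nuclei, 1.49 in oligodendrocyte-like nuclei and 2.42 in microglia-like nuclei. The oligodendrocyte-like ratio did not hold in every cluster. Cluster 4, with 83.5% of the knockdown-labelled nuclei of that class, held 77.6 against 104 CPM, with intervals that overlap. The difference between classes was not tested, since each group is 1 library. The neuronal gene Syt1 was higher in the knockdown-labelled library in all 3 classes, and its part in these ratios was not tested. Summed neuronal markers were mixed. Those of DG granule nuclei were lower in oligodendrocyte-like and microglia-like nuclei and differed little in astrocyte-like nuclei (1585 against 1624 CPM). Those of medium spiny neurons were higher in all 3 classes.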

How the results depend on the processing

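The log2 ratio of Pde10a in astrocyte-like nuclei stayed negative under all 15 alternatives, between -1.70 and -1.15. It was -1.15 with doublets kept, -1.70 with the oligodendrocyte-like level subtracted and -1.28 in male nuclei. The count of 8 pairs at least 1.5-fold higher was 3 after thinning, 1 after subtraction, 3 in male nuclei, 3 in female nuclei and 2 at a minimum of 200 UMIs, where fewer pairs could be tested. The count of 1 lower pair was 2 in female nuclei, where Rgs9 in oligodendrocyte precursor-like nuclei stood at -0.68. Female nuclei were an alternative chosen after seeing the data. Of 181 values for the other pairs, 171 lay within the interval of the reported ratio, 10 outside it, and 0 called ratios changed sign. Ppp1r1b and Rgs9 in astrocyte-like nuclei fell to 0.41 and 0.54, under 1.5-fold, in male nuclei and after subtraction, while Pde10a and Rgs9 in DG granule-like nuclei rose past it, to 0.66 in female and 0.73 in male nuclei. No nucleus of the medium spiny class held both Drd1 and Drd2 in any clustering. TMM scaling shifted all ratios in oligodendrocyte-like nuclei by -0.14. At Leiden resolution 2 the nuclei of cluster 27 stayed unnamed. No paired analysis was possible because each group is 1 library, and for the same reason no replicate could be left out. Receptor genes had too few UMIs for a comparison between libraries in each of the 5 compared classes. In the knockdown-labelled library Drd2 held 128 and Drd3 65 UMIs in septal GABAergic-like nuclei. Drd2 held 71 UMIs in GABAergic interneuron-like nuclei. These classes had 42 and 72 control nuclei, under the minimum of 100, and were not compared.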
